A study of Sus scrofa with 12 samples.

Results

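Small heat shock proteins and cytosolic chaperones were followed in satellite cells of pig muscle, the cells that divide and fuse to repair muscle fibres, in a series titled as a study of how CBP relates to their differentiation. The 10 genes were chosen by symbol: the small heat shock proteins CRYAB, HSPB1, HSPB2, HSPB7 and HSPB8, the cochaperone BAG3, and the HSP70 and HSP90 machinery HSPA8, HSP90AA1, DNAJB1 and HSPH1. Of these, 9 had a row of that name among the 31908 genes of the table, and HSPB2 was not analysed here. The 12 libraries of bulk RNA form 4 groups of 3 replicates: control cells (genotype tag WT, columns named NC) and cells of the arm named CBP, each collected at 0h (labelled proliferation) and at 60h (labelled differentiation). SGC-CBP30, an inhibitor of the bromodomains by which CBP and p300 bind acetylated lysine, is stated on every sample, controls included, at 5 uM per ml for 48 h in proliferation and 60 h in differentiation. The labels do not settle whether the CBP arm is a compound or a genetic change, so the groups are called control and CBP arm here. The control treatment is not stated. The cells are labelled as the line C3H, with pig as the organism, and nothing says whether replicates were separate cultures, so p-values measure the spread between these libraries only.

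Chaperones bind unfolded or aggregating proteins and keep them soluble until they can be refolded or degraded. Small heat shock proteins hold clients without using ATP, and several of them are abundant in muscle, where they protect desmin, actin and other parts of the contractile apparatus. HSP70 proteins such as HSPA8 fold clients in cycles of ATP hydrolysis, started by J-domain proteins such as DNAJB1 and ended by nucleotide exchange factors such as BAG3 and HSPH1. HSP90 then takes over folding of signalling proteins and, with the cochaperone UNC45B, of myosin. BAG3 and HSPB8 form a complex that hands damaged filamin to autophagy in contracting muscle.

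Libraries held 16095335 to 19155240 recovered reads, and no library stood apart from its group: the first and second principal components, with 49.4% and 34.9% of the variance, separated the 4 groups. The labelled cell type could be checked on 8 muscle lineage genes, all of which were detected and tested. Their summed level was 1549 to 1566 FPKM (reads scaled to gene length and library depth) in control cells at 0h and 391 to 426 in the CBP arm, then 2301 to 2479 and 1411 to 1539 at 60h. All 8 were lower in the CBP arm at 0h, while at 60h 4 were lower and 3 higher (PAX7, for example, at 7.57 FPKM in control cells and 12.3 in the CBP arm). Over all tested genes 18.1% were lower at 0h, and 27.0% were lower and 44.7% higher at 60h. DES, MYOG and MYH3 make up most of the sum. Markers of other cell types moved beside them. The 6 smooth muscle and pericyte markers summed to 3681 to 3830 FPKM in control cells and 1443 to 1494 in the CBP arm at 0h, and to 3784 to 3792 and 2638 to 2830 at 60h. The 6 fibroblast markers summed to 787 to 814 and 403 to 420 FPKM at 0h, and to 3085 to 3236 and 1778 to 1964 at 60h, where COL1A1 alone gave 2854 and 1551 on average, and 2 of the 6 were higher and 2 lower in the CBP arm. Endothelial, immune and adipocyte markers summed to 7.39 FPKM or less in every library, with CD3E at 0 throughout. Whether the cultures were mixed, and any part of this in the results on chaperones, was not tested. In bulk RNA fewer cells of a type and less RNA per cell cannot be told apart. CREBBP and EP300, which encode CBP and p300, were higher in the CBP arm at both times and under each scaling run (log2 changes 0.27 and 0.29 at 0h, 0.65 and 0.29 at 60h), and MYOG, the differentiation factor of myoblasts, was lower (-3.54 at 0h and -0.39 at 60h).

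All 9 chaperones passed the filter of 1 FPKM or more in at least 3 libraries. HSPB7 passed it only through the 6 control libraries, so it is kept out of the counts of called chaperones, and 8 genes were at 1 FPKM or more in every library. The most abundant was HSP90AA1, the inducible form of HSP90, in each of the 4 groups. In control cells at 0h it stood at 439 ± 7.92 FPKM (SD, n = 3), ahead of CRYAB (354 ± 3.57) and HSPA8 (350 ± 1.63), whose libraries overlapped, and of HSPB8 (234 ± 2.63). HSPB1, DNAJB1, HSPH1 and BAG3 followed at 23.8 to 52.3 FPKM, and HSPB7 was last at 1.45. In control cells at 60h HSPB8 had moved up to 472 FPKM, next to HSP90AA1 at 485 with overlapping libraries. In the CBP arm HSPA8 followed HSP90AA1 (388 and 261 FPKM at 0h and 60h), with libraries that overlapped those of HSPB8 at 60h, and at 60h CRYAB stood at 149 FPKM, below HSP90AA1, HSPA8 and HSPB8. The plot of FPKM by library shows all 9 genes.

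**Figure D1:**
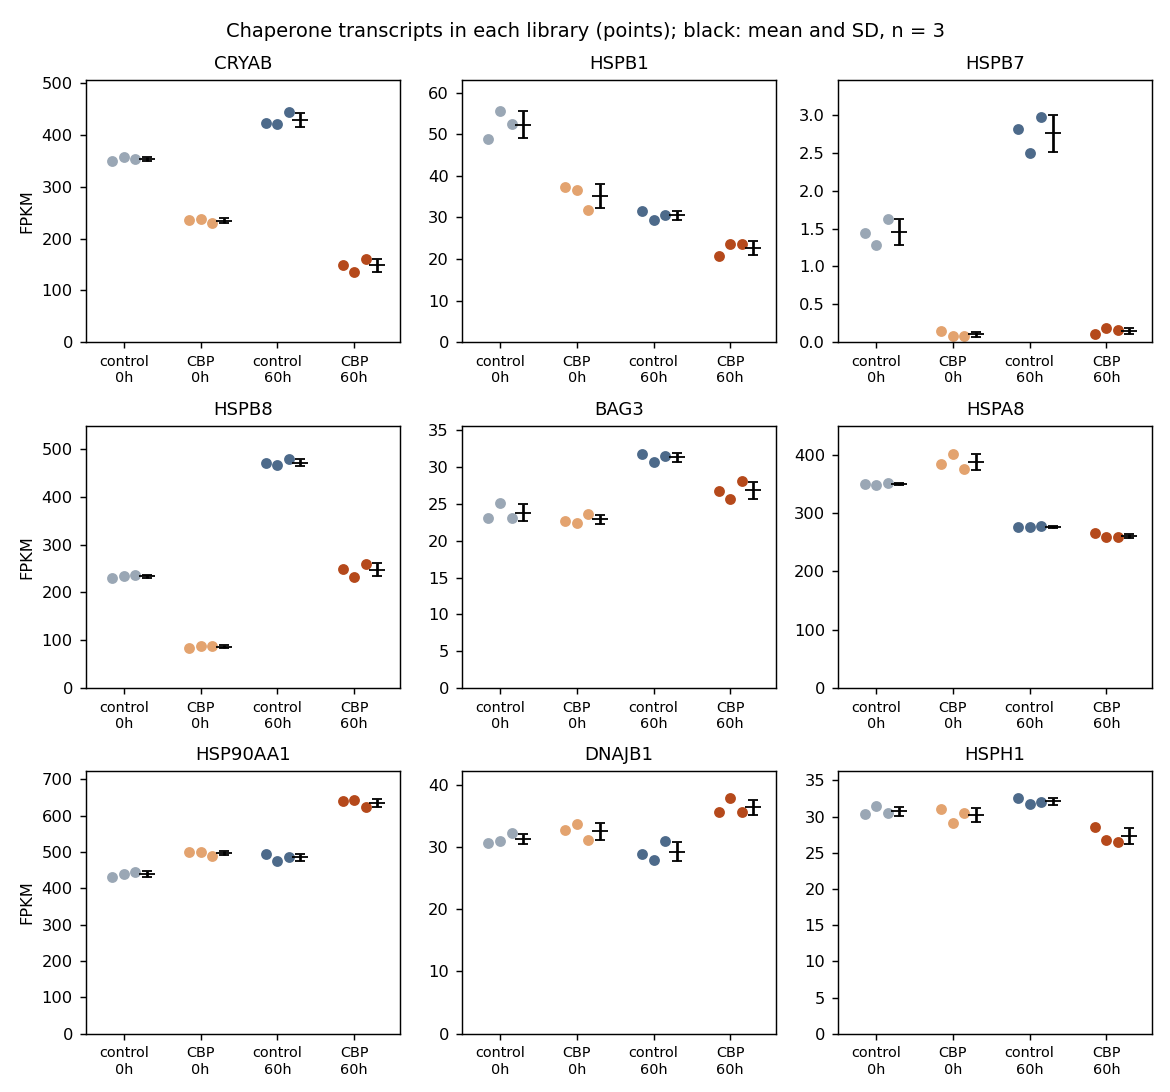
FPKM of the 9 chaperone genes (1 panel each, axis from 0) in every library of the 4 groups, with the mean and SD (n = 3) in black beside the points. CRYAB, HSPB1, HSPB7 and HSPB8 are lower in the CBP arm at both times without overlap, and HSP90AA1 is highest in the CBP arm at 60h (635 ± 10.6 FPKM). Limma called 18.1% of all tested genes lower at 0h and 27.0% at 60h, while the share without overlap is not given. HSPB7 passed the filter only through the control libraries.

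Of the 8 chaperones detected in every library, 3 were lower in the CBP arm than in control cells at 0h, 2 were higher and 3 did not pass (limma, adjusted p under 0.05). Over all 11636 tested genes, 18.1% were lower and 44.2% higher. The median log2 change of the 8 genes was -0.04, against 0.12 for all tested genes. At 60h, 6 of the 8 were lower and 2 higher, against 27.0% lower and 44.7% higher over all tested genes, with medians of -0.22 and 0.10. After median-of-ratios scaling, calls over all tested genes were even between directions, with 49.2% of them higher at 0h and 47.9% at 60h instead of 71% and 62.4%. HSPA8 and HSP90AA1 were then not called at 0h, and BAG3 and HSPH1 were called lower there. Quantile scaling also called BAG3 and HSPH1 lower at 0h. On FPKM as deposited, the lower genes were the small heat shock proteins at both times, joined at 60h by BAG3, HSPA8 and HSPH1. The higher ones were HSPA8 and HSP90AA1 at 0h, and HSP90AA1 and DNAJB1 at 60h. All changes are differences in log2(FPKM + 1), and fold values are ratios of mean FPKM. Overlap between libraries is described gene by gene, and the share of all tested genes without overlap is not given here.

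Between 0h and 60h, 4 of the 8 rose and 2 fell in control cells (28.8% and 38.0% of all tested genes by limma), and 4 rose and 4 fell in the CBP arm (31.3% and 41.5%). HSPB8, BAG3 and HSP90AA1 rose and HSPB1 and HSPA8 fell in both arms. CRYAB rose in control cells and fell in the CBP arm, while DNAJB1 (log2 change 0.16, limma adjusted p = 0.0055) rose and HSPH1 fell in the CBP arm. Under TPM, median-of-ratios and quantile scaling HSPH1 was called higher with time in control cells as well. These comparisons share groups with those between the arms, so they are not independent of them. Scaling to TPM moved the share of higher calls over all genes from 43.1% to 53.3% in control cells and from 43% to 54.6% in the CBP arm. The effect of the CBP arm itself differed between the times for 7 of the 8, more positive at 60h for 3 and more negative for 4, against 24.3% and 26.7% of all tested genes.

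**Figure D2:**
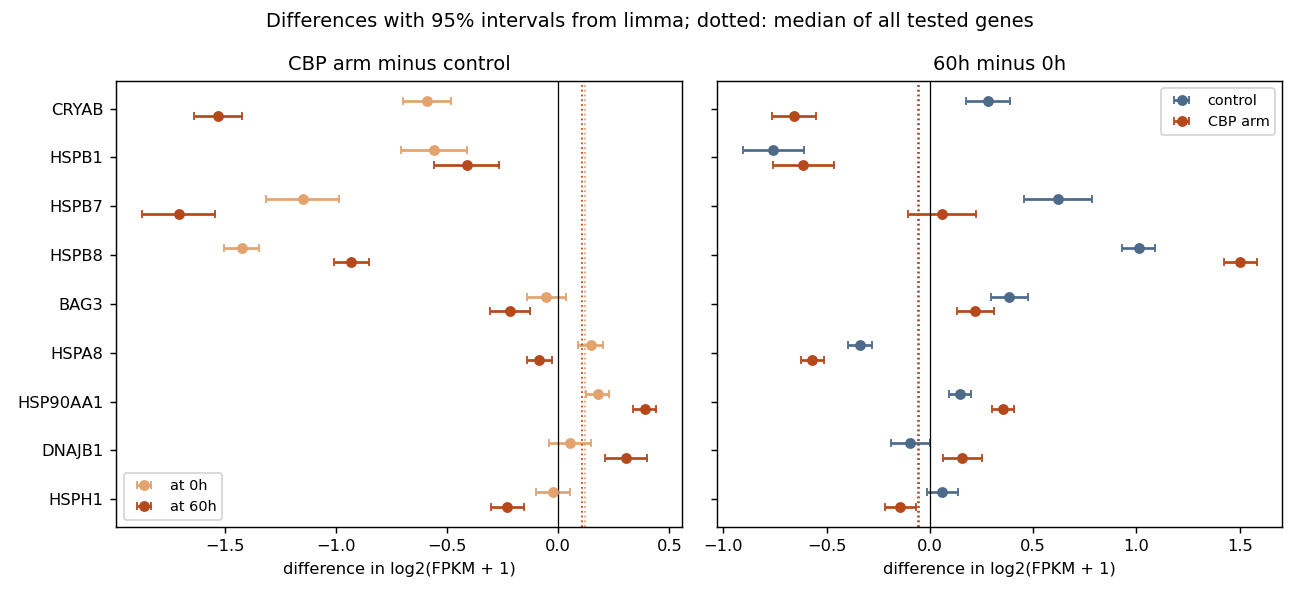
Differences in log2(FPKM + 1) for the 9 genes with 95% intervals from limma, between the CBP arm and control cells at each time (left) and between 60h and 0h in each arm (right); dotted lines mark the median of all tested genes. CRYAB rises with time in control cells (0.28) and falls in the CBP arm (-0.66), while HSPB8 rises in both.

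CRYAB, the alpha-B crystallin that binds desmin and other filament proteins of muscle, had opposite courses in the 2 arms. Its libraries held 351, 358 and 353 FPKM in control cells at 0h and 236, 239 and 230 in the CBP arm, then 424, 421 and 446 in control cells at 60h and 149, 136 and 161 in the CBP arm. No groups overlapped, and the lowest level was that of the CBP arm at 60h. CRYAB was thus 1.51-fold lower in the CBP arm at 0h (SE 0.049, log2 change -0.59, limma adjusted p = 8.26e-07) and 2.89-fold lower at 60h (log2 change -1.53, SE 0.049, adjusted p = 9.35e-11). From 0h to 60h it rose 1.22-fold in control cells (log2 change 0.28, limma adjusted p = 0.000304) and fell 1.58-fold in the CBP arm (-0.66, adjusted p = 1.29e-07). The difference between the arms in these courses was -0.94 (95% interval -1.09 to -0.79). The gene (ENSSSCG00000036724) lies on chromosome 9 at 39638505 to 39643530 in Sscrofa11.1. There its span shares 3414 bases with HSPB2, the muscle partner of HSPB3 among the small heat shock proteins, and it also overlaps C9H11orf1. With no strand setting stated, reads of the overlapping genes cannot be told apart in the CRYAB value.

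HSPB8, the small heat shock protein that works in a complex with BAG3, was the member with the largest rise over time. It stood at 231, 235 and 235 FPKM in control cells at 0h, at 83.8, 88.5 and 87.1 in the CBP arm at 0h, at 470, 466 and 479 in control cells at 60h, and at 248, 233 and 260 in the CBP arm at 60h. The CBP arm at 60h thus overlapped with control cells at 0h, and the other groups stood apart. HSPB8 (ENSSSCG00000009844, chromosome 14, 33626125 to 33639824) was 2.70-fold lower in the CBP arm at 0h (SE 0.036, log2 change -1.42, limma adjusted p = 2.92e-11) and 1.91-fold lower at 60h (-0.93, SE 0.036, adjusted p = 4.49e-10). It rose 2.02-fold from 0h to 60h in control cells and 2.86-fold in the CBP arm. The deficit was smaller at 60h than at 0h, by 0.49 on the log2 scale (95% interval 0.38 to 0.60, limma adjusted p = 7.31e-06).

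BAG3 (chromosome 14, 129510240 to 129533998), the nucleotide exchange factor of HSP70 that binds HSPB8, varied far less than its partner. It measured 23.1, 25.2 and 23.1 FPKM in control cells and 22.7, 22.5 and 23.6 in the CBP arm at 0h, with overlap. At 60h it measured 31.8, 30.7 and 31.5 FPKM in control cells and 26.8, 25.7 and 28.1 in the CBP arm, without overlap. The difference at 0h did not pass (log2 change -0.05, 95% interval -0.14 to 0.04, limma adjusted p = 0.278), although it did after median-of-ratios scaling (-0.18, adjusted p = 0.00199) and quantile scaling (-0.12, adjusted p = 0.0205). At 60h BAG3 was 1.17-fold lower in the CBP arm (-0.22, SE 0.041, limma adjusted p = 0.000465), and it rose with time in both arms, 1.32-fold in control cells and 1.17-fold in the CBP arm. Within each library HSPB8 exceeded BAG3 by 9.82 ± 0.444 times in control cells and 3.78 ± 0.141 times in the CBP arm at 0h (SD, n = 3), and by 15.04 ± 0.242 and 9.20 ± 0.119 times at 60h. These ratios of FPKM do not depend on a scaling factor per library, and they were lower in the CBP arm at both times without overlap.

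HSPB1, also called HSP27, which binds actin and is found in many tissues, was the small heat shock protein that fell with time in both arms. Control cells held 49.0, 55.6 and 52.4 FPKM at 0h and 31.5, 29.3 and 30.6 at 60h. The CBP arm held 37.3, 36.6 and 31.9 FPKM at 0h and 20.8, 23.6 and 23.7 at 60h. Levels at 60h were below those at 0h in each arm, and those of the CBP arm were below the controls of the same time. HSPB1 (ENSSSCG00000039962, chromosome 3, 10038074 to 10039441) was 1.49-fold lower in the CBP arm at 0h (SE 0.067, log2 change -0.56, limma adjusted p = 1.90e-05) and 1.34-fold lower at 60h (-0.41, SE 0.067, adjusted p = 0.000147). The difference between these effects did not pass (0.15, 95% interval -0.06 to 0.35, limma adjusted p = 0.224).

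HSPB7 (ENSSSCG00000041935, chromosome 6, 75171507 to 75174918), a small heat shock protein of heart and skeletal muscle that binds filamin C, had few reads and the largest ratios. It measured 1.45, 1.28 and 1.63 FPKM in control cells and 0.142, 0.0845 and 0.0861 in the CBP arm at 0h, or 475 against 32 reads over 3 libraries. At 60h it measured 2.82, 2.49 and 2.97 FPKM in control cells and 0.112, 0.183 and 0.154 in the CBP arm, or 876 against 49 reads. Mean levels were 13.9-fold lower at 0h (log2 change -1.15, limma adjusted p = 1.06e-07) and 18.4-fold lower at 60h (-1.71, adjusted p = 1.36e-09). The added 1 in log2(FPKM + 1) shrinks both log2 changes. HSPB7 passed the filter only where it was high, so these calls are given as a description. It rose 1.90-fold with time in control cells (log2 change 0.62, limma adjusted p = 1.46e-05) and did not pass in the CBP arm (0.06, 95% interval -0.11 to 0.22). The difference between times in the CBP-arm effect (-0.56) was not called with a pseudocount of 0.1 (adjusted p = 0.0869) or in limma-voom on the recovered reads (adjusted p = 0.427).

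Summed over CRYAB, HSPB1, HSPB7 and HSPB8, small heat shock protein transcripts amounted to 641 ± 9.05 FPKM in control cells and 356 ± 7.49 in the CBP arm at 0h, and to 935 ± 20.9 and 419 ± 26.4 at 60h (SD, n = 3). CRYAB made up 55.2% of that sum in control cells at 0h, 65.8% in the CBP arm at 0h, 46.0% in control cells at 60h and 35.5% in the CBP arm at 60h. HSPB8 made up 36.4%, 24.3%, 50.4% and 59.1% in the same order. The ratio of HSPB8 to CRYAB was therefore 0.66 ± 0.005 in control cells and 0.369 ± 0.012 in the CBP arm at 0h, and 1.10 ± 0.018 and 1.67 ± 0.052 at 60h. The CBP arm had the lowest ratio at 0h and the highest at 60h, with no overlap between groups.

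The other small heat shock proteins of the table that passed the filter, HSPB6 and HSPB3, were lower in the CBP arm than in control cells. HSPB3 was at 1 FPKM or more in 9 of 12 libraries and under 1 in every CBP-arm library at 0h. It passed the filter through groups where it was higher, so its values at 0h are given as a description. HSPB6, known from smooth and cardiac muscle, had 43.6 ± 0.982 FPKM in control cells and 14.5 ± 1.36 in the CBP arm at 0h, and 64.0 ± 4.86 and 22.6 ± 0.901 at 60h (log2 changes -1.53 and -1.46, limma adjusted p = 2.31e-09 and 1.37e-09). HSPB3, which pairs with HSPB2 in muscle, had 1.57 ± 0.223 and 0.184 ± 0.081 FPKM at 0h, and 7.47 ± 0.386 and 1.99 ± 0.253 at 60h (log2 changes -1.12 and -1.50). HSPB3 had 23 reads over the 3 CBP-arm libraries at 0h, where the added 1 shrinks the log2 change: by ratio of means it was 8.52-fold lower at 0h and 3.74-fold lower at 60h. Its interaction changed sign with the method (-0.39, limma adjusted p = 0.0176; 1.22 in limma-voom, adjusted p = 0.0130), so no direction is given for it. From 0h to 60h HSPB6 rose 1.47-fold in control cells and 1.56-fold in the CBP arm, and HSPB3 rose 4.76-fold and 10.8-fold, whereas CRYAB fell in the CBP arm. Both were lower in the CBP arm at both times, also after scaling to TPM and after median-of-ratios and quantile scaling. The testis genes HSPB9 and ODF1 were at or near 0.

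**Figure D3:**
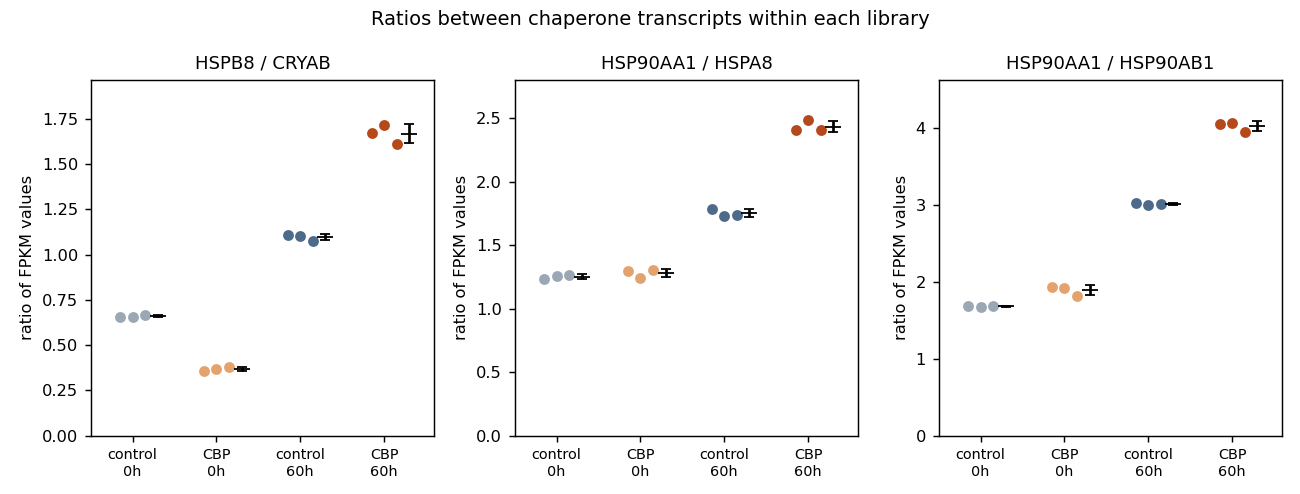
Ratio of FPKM values of 2 genes within each library (points) with mean and SD (n = 3) in black, axes from 0. HSPB8 over CRYAB is lowest in the CBP arm at 0h (0.369) and highest there at 60h (1.67), and HSP90AA1 over HSPA8 is 1.25 and 1.28 in the arms at 0h and 2.43 in the CBP arm at 60h.

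HSPA8 (chromosome 9, 49982278 to 49986760), the constitutive HSP70 also known as HSC70, fell with time in both arms. Control cells held 349, 349 and 352 FPKM at 0h and 276, 276 and 278 at 60h, and the CBP arm held 385, 402 and 376 at 0h and 265, 258 and 259 at 60h. The CBP arm was above control cells at 0h and below them at 60h, each time without overlap. At 0h it was 1.11-fold higher (log2 change 0.15, SE 0.026, limma adjusted p = 0.000355), a call that median-of-ratios scaling removed (0.01, adjusted p = 0.774). That scaling moved the median of all genes from 0.12 to 0.0044. At 60h HSPA8 was 1.061-fold lower (log2 change -0.08, SE 0.026, limma adjusted p = 0.0102), or -0.22 after that scaling. With time it fell 1.27-fold in control cells and 1.49-fold in the CBP arm. Near copies of HSPA8 and HSP90AA1 in mammalian genomes make the assignment of their reads less certain.

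HSP90AA1 was higher in the CBP arm and rose with time. Its libraries held 430, 439 and 446 FPKM in control cells and 500, 499 and 490 in the CBP arm at 0h, then 493, 477 and 485 in control cells and 640, 642 and 623 in the CBP arm at 60h. The CBP arm stood above control cells of the same time without overlap. The difference was 1.13-fold at 0h (log2 change 0.18, SE 0.024, limma adjusted p = 4.25e-05), not called after median-of-ratios scaling (0.04, adjusted p = 0.272), and 1.31-fold at 60h (0.39, SE 0.024, adjusted p = 2.60e-08), where it was called after that scaling too (0.26). The effect grew between the times by 0.21 (95% interval 0.14 to 0.28). HSP90AB1, the constitutive HSP90, had 261 ± 5.22 and 263 ± 5.89 FPKM in control cells and the CBP arm at 0h, and 161 ± 2.26 and 158 ± 0.273 at 60h. It was not called between the arms (limma adjusted p = 0.712 and 0.301) and fell with time in both. HSP90AA1 over HSP90AB1 within a library rose from 1.68 ± 0.00669 to 3.01 ± 0.011 between the times in control cells and from 1.89 ± 0.062 to 4.02 ± 0.062 in the CBP arm, with no overlap between groups. HSP90AA1 over HSPA8 was 1.25 ± 0.019 and 1.28 ± 0.034 in control cells and the CBP arm at 0h, with overlap, and 1.75 ± 0.032 and 2.43 ± 0.045 at 60h.

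DNAJB1 (chromosome 2, 64761672 to 64764482), the J-domain protein that starts the HSP70 cycle on unfolded clients, was higher in the CBP arm at 60h and not called at 0h. It measured 30.7, 31.0 and 32.2 FPKM in control cells and 32.7, 33.7 and 31.0 in the CBP arm at 0h, with overlap (log2 change 0.05, 95% interval -0.04 to 0.14, limma adjusted p = 0.312). At 60h it measured 28.9, 27.9 and 30.9 FPKM in control cells and 35.6, 37.8 and 35.5 in the CBP arm, without overlap. It was 1.24-fold higher (log2 change 0.30, SE 0.043, limma adjusted p = 4.22e-05), and the effects at the 2 times differed by 0.25 (95% interval 0.12 to 0.38, adjusted p = 0.00417). The change with time in control cells did not pass (-0.10, limma adjusted p = 0.067) but was called without control replicate 3 at 60h (-0.13, adjusted p = 0.0178).

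HSPH1 (chromosome 11, 7733874 to 7759528), the HSP110 protein that exchanges nucleotides on HSP70, moved the other way at 60h. It measured 30.3, 31.5 and 30.5 FPKM in control cells and 31.0, 29.1 and 30.5 in the CBP arm at 0h, with overlap (log2 change -0.02, 95% interval -0.10 to 0.05, limma adjusted p = 0.547). At 60h the control libraries held 32.6, 31.7 and 32.0 FPKM and those of the CBP arm 28.5, 26.8 and 26.5, without overlap, which is 1.18-fold lower (-0.23, SE 0.034, limma adjusted p = 7.64e-05). At 0h it was called lower after median-of-ratios scaling (-0.16, adjusted p = 0.00216), and quantile scaling gave -0.08 (adjusted p = 0.0428). With time in control cells it was not called (0.06, limma adjusted p = 0.139), but it was under TPM, median-of-ratios and quantile scaling (0.15, 0.13 and 0.11, adjusted p = 0.00308, 0.00563 and 0.0116). Its fall with time in the CBP arm (-0.14, limma adjusted p = 0.00257) was lost after scaling to TPM (adjusted p = 0.439) and by median of ratios (adjusted p = 0.0648). Relative to HSPA8 in the same library, DNAJB1 was 8.94% ± 0.187 in control cells and 8.38% ± 0.119 in the CBP arm at 0h, and 10.6% ± 0.483 and 13.9% ± 0.63 at 60h. HSPH1 was 8.79% ± 0.199 and 7.81% ± 0.492 of HSPA8 at 0h, and 11.6% ± 0.193 and 10.5% ± 0.259 at 60h.

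The other proteins of the HSP70 cycle moved in both directions. HSP70.2, a stress-inducible HSP70 of the pig, held 5.22, 5.82 and 6.21 FPKM in control cells and 8.56, 9.39 and 9.09 in the CBP arm at 0h, and 4.77, 4.84 and 4.47 against 12.8, 12.9 and 13.3 at 60h. It was higher in the CBP arm at both times without overlap, 1.57-fold and 2.77-fold (log2 changes 0.57 and 1.30, limma adjusted p = 2.92e-06 and 1.00e-09), although inducible HSP70 genes are near copies and its reads are uncertain. HSPA4, an HSP110 protein like HSPH1, had 76.2 ± 0.798 FPKM in control cells and 67.8 ± 0.63 in the CBP arm at 0h, and 78.8 ± 2.70 and 54.1 ± 0.437 at 60h. In the CBP arm 44.2% of all tested genes were higher and 18.1% lower at 0h, and 44.7% and 27.0% at 60h. Of the 5 tested genes of the list of other HSP70 and HSP110 proteins, 4 were higher and 1 lower at 0h (median log2 change 0.29). At 60h 3 were higher and 1 lower (median 0.16). After median-of-ratios scaling the counts were 3 and 1 at 0h (median 0.16) and 2 and 1 at 60h (median 0.04).

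Among 10 other cytosolic J-domain genes, 5 were higher and 3 lower in the CBP arm at 0h (median log2 change 0.07). At 60h 3 were higher and 2 lower (median 0.02). The shares over all tested genes were 44.2% and 18.1% at 0h, and 44.7% and 27.0% at 60h. After median-of-ratios scaling the J-domain counts were 1 and 3 at 0h and 3 and 4 at 60h. Both list medians then turned negative (-0.06 and -0.09). DNAJB4, a close relative of DNAJB1, was lower at both times (log2 changes -0.69 and -0.87). DNAJA1, which works with HSPA8 as DNAJB1 does, had 154 ± 1.83 FPKM in control cells and 208 ± 4.96 in the CBP arm at 60h (0.43, limma adjusted p = 1.03e-07). DNAJB5 changed sides, from -0.55 at 0h to 0.42 at 60h, and the difference of these effects was 0.97 (limma adjusted p = 3.63e-07).

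Of 9 further HSP70 cochaperones, 6 were higher and 2 lower in the CBP arm at 0h (median log2 change 0.17), or 2 and 2 after median-of-ratios scaling (median 0.04). At 60h 5 were higher and 3 lower (median 0.20). Over all tested genes the shares higher and lower were 44.2% and 18.1% at 0h, and 44.7% and 27.0% at 60h. BAG2, which inhibits the ubiquitin ligase STUB1, had 4.39 ± 0.393 FPKM in control cells and 2.50 ± 0.107 in the CBP arm at 0h, and 7.77 ± 0.395 and 2.54 ± 0.23 at 60h (log2 changes -0.62 and -1.31, limma adjusted p = 6.67e-06 and 4.78e-09). BAG4 was higher at both times (0.36 and 0.53), and STUB1 was higher at 60h (0.41, limma adjusted p = 7.47e-05). At 0h STUB1 was called higher (0.26), but not with median-of-ratios scaling (0.12, adjusted p = 0.11).

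HSP90 cochaperones were called in both directions. UNC45B, the muscle chaperone of myosin, held 157 ± 4.34 FPKM in control cells and 38.5 ± 1.85 in the CBP arm at 0h, and 153 ± 1.92 and 82.6 ± 2.61 at 60h (log2 changes -2.00 and -0.88, limma adjusted p = 1.66e-12 and 7.66e-10). FKBP5, a cochaperone of steroid receptor complexes, was 1.70-fold higher at 0h and 1.59-fold higher at 60h (log2 changes 0.74 and 0.65). Among all tested genes 44.2% were called higher and 18.1% lower at 0h, and 44.7% and 27.0% at 60h. Of the 13 tested genes of the list, 7 were higher and 1 lower at 0h (median 0.24), and 5 were higher and 2 lower at 60h (median 0.03). After median-of-ratios scaling the counts were 5 and 2 at 0h, and 1 higher and 5 lower at 60h with a median of -0.09, so no direction is given for the list at 60h.

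The cytosolic chaperonin CCT and prefoldin, which fold actin and tubulin, had 8 of 11 tested genes higher and none lower in the CBP arm at 0h (limma, median log2 change 0.14; none lower at an unadjusted p under 0.05 or by limma-voom). After median-of-ratios scaling 1 was higher and 2 lower (median 0.01), so no direction is given at 0h. At 60h 6 were lower and none higher by limma, adjusted or not, or by limma-voom (median -0.08), and 8 were lower after that scaling. For comparison, limma called 44.2% of all tested genes higher and 18.1% lower at 0h, and 44.7% and 27.0% at 60h. From 0h to 60h 10 of the 11 CCT and prefoldin genes fell in each arm, although in control cells only 6 did under TPM, quantile or median-of-ratios scaling. Over all tested genes 38.0% fell in control cells and 41.5% in the CBP arm. CCT7 fell from 206 ± 0.799 to 157 ± 3.62 FPKM in control cells and from 234 ± 8.90 to 143 ± 0.826 in the CBP arm, and the fall was larger in the CBP arm by 0.32 on the log2 scale (interaction -0.32, limma adjusted p = 3.49e-05). CCT2 and PFDN5, genes used by every cell, were listed near 0 or at 0, so a value near 0 in this table can reflect how reads were assigned.

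**Figure D4:**
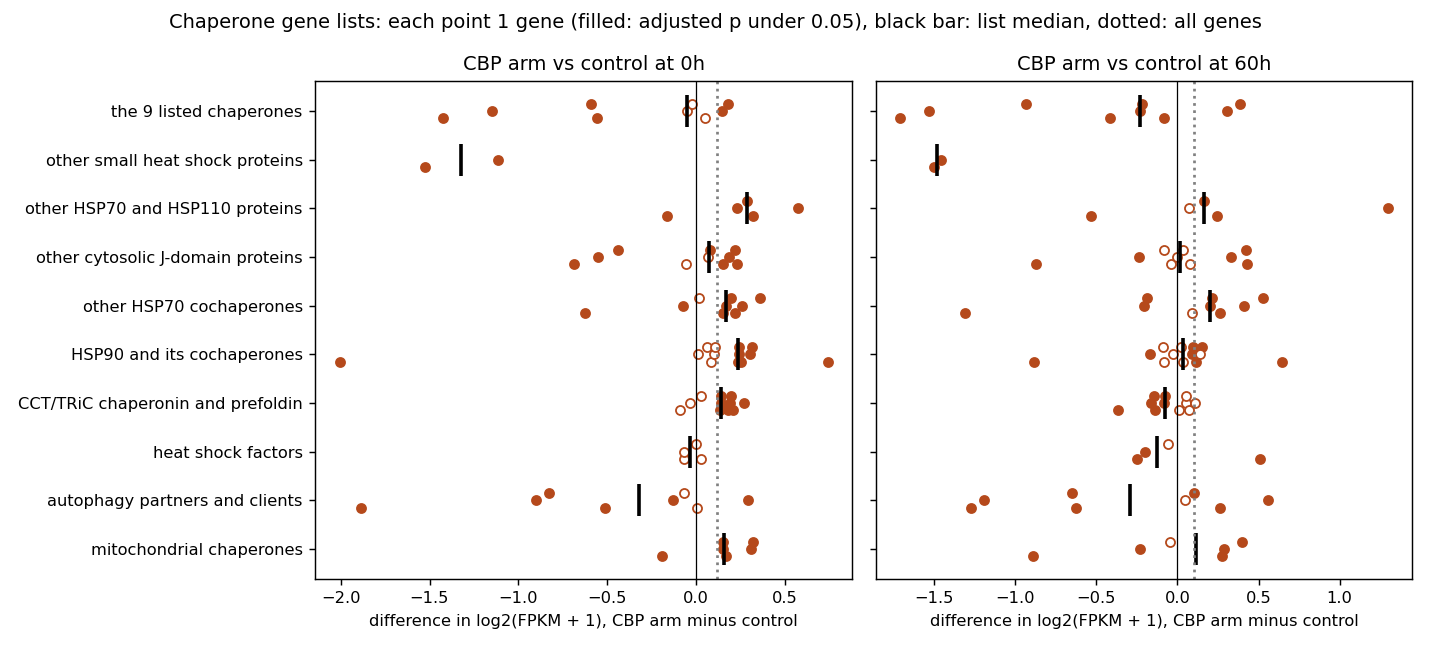
Differences in log2(FPKM + 1) between the CBP arm and control cells at 0h (left) and 60h (right) for each tested gene of 10 chaperone lists; filled points passed limma at an adjusted p under 0.05, bars are list medians and dotted lines the median of all tested genes. Both tested genes of the other small heat shock proteins (HSPB3 and HSPB6) lie below -1 at both times, and the lowest point at 0h is UNC45B (-2.00). HSPB3 was under 1 FPKM in every CBP-arm library at 0h.

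The list of heat shock factors, which switch on chaperone genes under stress, and their binding proteins had 4 tested genes: HSF1, HSF2, HSBP1 and HSF2BP. None was called at 0h by limma, at an unadjusted p under 0.05 or by limma-voom. Over all tested genes limma called 44.2% higher and 18.1% lower at 0h. After median-of-ratios scaling HSF2, HSBP1 and HSF2BP were called lower there and HSF1 was not, and after quantile scaling 1 of the 4 was lower. HSF1, the main stress factor, stood at 12.9 ± 0.265 FPKM in control cells and 12.9 ± 0.30 in the CBP arm at 0h, and at 10.0 ± 0.973 and 8.23 ± 0.285 at 60h (log2 change -0.25, limma adjusted p = 0.00139). HSF2 was higher in the CBP arm at 60h, with 15.3 ± 0.124 against 10.5 ± 0.318 FPKM (0.51, limma adjusted p = 2.58e-05), and its libraries overlapped at 0h.

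Between genes, the 9 chaperones did not share one pattern over the 12 libraries. Correlations of log2(FPKM + 1) are given as descriptions, since the libraries form 4 groups and share their scaling. CRYAB was highest with HSPB7 (r = 0.894) and HSPH1 (0.892) and lowest with DNAJB1 (-0.906) and HSP90AA1 (-0.857). HSPB8 was closest to BAG3 (0.855). HSPA8 and HSP90AA1 had r = -0.626. Among all tested genes with a symbol, the 3 closest to CRYAB were COL15A1 (0.996), LOXL3 (0.994) and L1CAM (0.994), out of 110 genes at 0.95 or more. The closest to HSPB8 were TNFAIP1, SFRP2 and DIPK2A (each 0.996), out of 115 genes at 0.95 or more. Closest to HSPA8 were CCT7 (0.997), EVI5 and CDK1 (0.995 and 0.994), out of 459 such genes. Closest to HSP90AA1 were FMNL2, H1-3 and ORMDL1 (0.991 to 0.992), out of 336 such genes. For HSPB1 the closest were MYL10 (0.985), TCTN3 and PTDSS1, out of 72 genes at 0.95 or more. For HSPB7 they were ADGRG2 (0.997), MFAP5 and POSTN, out of 122 such genes. For BAG3 they were RELB (0.986), FJX1 and ACVR1, out of 50 such genes. DNAJB1 had 1 gene at 0.95 or more, HDAC11 (0.955), followed by AMN1 and PDE4B. HSPH1 had no gene at 0.95 or more, and CXCL8 (0.945), MTHFD1L and NAMPT were its closest.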

How the data were processed

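RNA-seq libraries were made from total RNA, per the labels' protocols. Trimmomatic and featureCounts on Sscrofa11.1 are named in the submitters' processing notes. Not given in the sources used here are the aligner, tool versions, annotation release and strand setting. The authors deposited 1 table of FPKM values with 1 column per library. Because these are whole multiples of 1 read's worth, reads and library totals were recovered for all 22521 genes above 0, within a tolerance of 0.001 reads. The tolerance widened for genes with very many reads. The smallest gene length that gave whole reads was taken, so a gene seen in few libraries can have too few reads. Recovered reads summed to 99.991% to 99.993% of the library totals. Reads and totals served for depth, for reads behind low values and for 1 alternative. Columns named NC were read as the WT arm, the only arm other than CBP.

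Genes at 1 FPKM or more in at least 3 of 12 libraries (11636) were fitted as log2(FPKM + 1) with limma 3.58.1 in R 4.3.3, as 4 group means with a trended empirical Bayes spread. The method was also run on simulated reads in which few genes changed, evenly up and down. That run cannot speak to scaling where many genes change, and its outcome is not given here. The 5 comparisons were the CBP arm against control at each time, 60h against 0h in each arm, and their interaction. Tests were two-sided with Benjamini-Hochberg adjustment over all tested genes, with calls made below an adjusted p of 0.05. Comparisons that share groups are not independent. Within groups, all pairs of libraries differed by more than sampling noise.

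The members and lists were chosen with earlier results of these data known. Named are the members, up to 3 called genes with the largest change per list and comparison, CREBBP, EP300, MYOG, HSF1, and the 3 genes most like each member. CCT2, PFDN5, HSPB9, ODF1 and CD3E, and values of the other genes in comparisons outside that rule, were chosen after their values were seen. Positions are those of RefSeq genes on Sscrofa11.1, matched by symbol, and no chromosome is given for HSP90AA1 there. The gene models used for counting can differ from them. For HSPB7 and HSPA8 the recovered lengths, 5775 and 6525 bases, exceed the RefSeq spans of 3412 and 4483. Overlaps with other genes were looked up on the RefSeq spans only. No sequences were used. Alternatives were other pseudocounts, filters and scalings (TPM, median of ratios, quantile), a replicate block, leaving out each library, and limma-voom on recovered reads.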

Additional observations from a re-analysis of the deposited data

Results flagged for a closer look

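For 7 of the 8 chaperones at 1 FPKM or more in every library the difference between the CBP arm and control cells was not the same at 60h as at 0h, by a test of the interaction in limma (adjusted p under 0.05, against 24.3% of all tested genes called higher and 26.7% lower). The difference became more negative for CRYAB (by -0.94), HSPA8 (-0.23), HSPH1 (-0.20) and BAG3 (-0.16), and less negative or more positive for HSPB8 (0.49), DNAJB1 (0.25) and HSP90AA1 (0.21). For HSPA8 the sign of the effect itself turned on FPKM as deposited, from 0.15 to -0.08. After median-of-ratios scaling HSPA8 was not called at 0h (0.01, limma adjusted p = 0.774) and its effect at 60h was -0.22, so no turn of sign is given there. HSPB7 (-0.56) was called too, but it passed the filter only through the control libraries, and neither a pseudocount of 0.1 (adjusted p = 0.0869) nor limma-voom (adjusted p = 0.427) kept its call. The call for BAG3 (limma adjusted p = 0.0334) was lost in 10 of the other settings run.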

How the results depend on the processing

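Over 9 genes and 5 comparisons, 997 of 1021 values under other settings kept their side of the threshold. Of the rest, 16 lost a call and 8 gained one. No value that was called in the main fit or in the other setting changed direction. Values called in neither were not checked for direction. The counts of members given here are over all 9, HSPB7 included. After median-of-ratios scaling no member was called higher at 0h, adjusted or not (0 against 2, and 2 by limma-voom on recovered reads, an alternative added after seeing the data), 6 instead of 4 were called lower, and 2990 instead of 5148 of all tested genes were called higher. Of all tested genes, 3087 instead of 2102 were then called lower. That scaling moved the share of higher calls from 71% to 49.2% at 0h and from 62.4% to 47.9% at 60h. Leaving out 1 library at a time, members called at 0h stayed at 2 higher and 4 lower and at 60h at 2 and 7. All tested genes then ranged from 4708 to 5145 higher and 1946 to 2108 lower at 0h. At 60h they ranged from 4821 to 5195 higher and 2880 to 3142 lower. Members called lower over time in control cells ranged from 2 to 3, against 4098 to 4428 of all tested genes. Those called lower in the interaction ranged from 4 to 5, against 2804 to 2980. The interaction of BAG3 (-0.16) lost its call without control replicate 1 or 3 or CBP replicate 3 at 0h, and without control replicate 1 or 3 or CBP replicate 1 or 2 at 60h (limma adjusted p = 0.0589 to 0.0794). It also lost it with no filter (0.0553) and scaled to TPM (0.0859); the cause was not tested. Correlations between deviations of same-numbered libraries were low, at -0.094 to 0.082, and 6 of 12 pairs correlated best with their own number. From 0h to 60h in the CBP arm each number correlated best with its own (0.082, 0.016 and 0.07). Between the arms at 0h none did (-0.071, -0.056 and -0.094). With the replicate number as a block, the call for BAG3 in the interaction was lost (limma adjusted p = 0.05003). Members called lower there went from 5 to 4, and all tested genes called lower from 3104 to 3037. HSPB7, with 8 to 20 reads per library in the CBP arm, is the gene that depth limits most, and the stricter filter left it untested.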

Other observations

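Between the arms, partners and clients of the small heat shock proteins, and the chaperones of mitochondria, differed in both directions. DES, the intermediate filament that CRYAB binds, had 788 ± 27.8 FPKM in control cells and 213 ± 7.71 in the CBP arm at 0h, and 831 ± 87.9 and 342 ± 9.87 at 60h (log2 changes -1.88 and -1.27, limma adjusted p = 2.30e-10 and 2.79e-09). SYNPO2, a partner of BAG3 in the autophagy of filamin, fell 1.99-fold from 0h to 60h in control cells (log2 change -0.98), while BAG3 rose. SQSTM1, an autophagy receptor, rose over the same time 1.54-fold in control cells and 1.80-fold in the CBP arm. Of 8 tested genes of that list, 5 were lower and 1 higher in the CBP arm at 0h, and 4 were lower and 3 higher at 60h (1 higher after median-of-ratios scaling). Over all tested genes, 18.1% were lower and 44.2% higher at 0h, and 27.0% and 44.7% at 60h.

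HSPA9, the HSP70 of mitochondria, was 1.86-fold lower in the CBP arm at 60h (log2 change -0.89, limma adjusted p = 3.39e-11), where TRAP1, the HSP90 of mitochondria, was 1.33-fold higher (0.40, adjusted p = 6.35e-08). HSPA9 was lower by 0.19 at 0h, and the 2 effects differed by -0.70 (limma adjusted p = 2.17e-08). On FPKM as deposited, 5 of the 6 tested mitochondrial chaperones were higher and 1 lower in the CBP arm at 0h. At 60h 3 were higher and 2 lower. The shares of all tested genes were 44.2% and 18.1% at 0h, and 44.7% and 27.0% at 60h. From 0h to 60h HSPD1, the chaperonin of mitochondria, fell 1.45-fold in control cells and 1.89-fold in the CBP arm. CCT7, of the related chaperonin in the cytosol, fell 1.31-fold and 1.64-fold over the same time. Of the 6 mitochondrial chaperones, 5 fell and 1 rose with time in control cells, and all 6 fell in the CBP arm. Limma called 38.0% of all tested genes lower with time in control cells and 41.5% in the CBP arm.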
